A study of Mus musculus with 14 samples.

Results

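The genes that cut, protect and crosslink the extracellular matrix were examined in the hearts of WT mice. They were taken by symbol and are the protein-coding genes named Mmp or Timp with a number, all genes beginning with Adamts, and Lox with Loxl1, Loxl2, Loxl3 and Loxl4. They number 54 of the 56748 genes in the files: 21 matrix metalloproteinases (MMPs), 4 tissue inhibitors of metalloproteinases (TIMPs), 19 ADAMTS enzymes, 5 ADAMTS-like proteins and 5 lysyl oxidases. Mmp1a and Mmp1b carry a letter after the number and fell outside the rule.

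Hearts of 14 WT C57BL6J mice were sequenced, 1 library per mouse, as controls for mice in which doxycycline induces a short hairpin against frataxin. WT_B held 5 males of the second cohort (mice 4, 5, 7, 8 and 9) with 16 weeks of doxycycline chow. WT_F held 5 females of the first cohort (mice 28 to 32) with 26 weeks. WT_A held 4 males of the first cohort (mice 22, 23, 24 and 26) with 20 weeks. All 14 mice carried no hairpin and received no NAD precursor, and all received the doxycycline chow, which began at 12 to 16 weeks of age. The sex, cohort and weeks come from the study's text and supporting data, and WT_B was matched to the second cohort by elimination. Every library, those of WT_F included, is labelled 16 to 20 weeks. The 26 weeks used here for WT_F therefore conflict with its label, and the conflict was not resolved. WT_B and WT_F differ in sex, cohort, weeks and the libraries' mitochondrial share, WT_B and WT_A in cohort, weeks and mitochondrial share, and WT_F and WT_A in sex and weeks, so the factors within each comparison cannot be told apart. A small piece of each heart was extracted, and in such bulk tissue fewer cells of a type and less RNA per cell cannot be told apart.

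MMPs are zinc proteases, secreted or held at the cell surface, that degrade collagens, proteoglycans and other matrix proteins after their propeptide is removed. TIMPs bind the active site of MMPs and block it, and Timp3 also inhibits several ADAMTS enzymes. ADAMTS enzymes cut versican and aggrecan, trim procollagens or cleave single plasma and matrix proteins, whereas ADAMTS-like proteins share their ancillary domains but lack the protease domain. Lysyl oxidases oxidise lysines of collagen and elastin so that the fibres can crosslink, and in the heart this balance of cutting and crosslinking helps to set the stiffness of the wall.

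Levels are given as FPKM, fragment numbers corrected for both gene length and sequencing depth, so genes may be set side by side per length. The libraries held 16810000 to 31970000 fragments each. Transcripts of the mitochondrial genome took 33.8% to 52.0% of the summed FPKM in the 5 WT_B hearts, 49.99% in mouse 28 of WT_F and 51.0% in mouse 22 of WT_A, against 1.93% to 17.2% in the other 7. Cardiomyocyte markers were present in every library, all 8 of them at 1 FPKM or more. Mouse 24 of WT_A stood apart: its 6 atrial markers summed to 12910 FPKM, against 22.4 to 233 in the other 13 hearts, and its 5 ventricular markers to 245 FPKM, against 4380 to 8409. Its 5 endocardial markers summed to 228 FPKM, against 8.32 to 14.5 elsewhere. Mouse 22 of WT_A had the highest sum of 9 neutrophil markers, 9.46 FPKM, against 0.0293 to 1.73 elsewhere, with Elane at 0 in all 14. Several results that rest on these libraries are given with and without them.

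Of the 54 genes, 17 were at 1 FPKM or more in all 14 hearts, 11 in some hearts and 26 in none. Each branch was led by a few genes: Mmp15 and Mmp2 among MMPs, Timp2 and Timp3 among inhibitors, Adamts1 and Adamts7 among ADAMTS enzymes in 13 of the 14 hearts, Adamtsl5 and Adamtsl4 among ADAMTS-like genes, and Loxl1 among lysyl oxidases. Mmp7 (matrilysin), Mmp20 (the enamel protease), Mmp21 and Adamts16 had 0 fragments in all 14 libraries. A level of 3 fragments in 1 library, taken as the floor, equals 0.0879 to 0.167 FPKM for Mmp7, the shortest of them, and 0.0137 to 0.0261 FPKM for Adamts16.

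**Figure D1:**
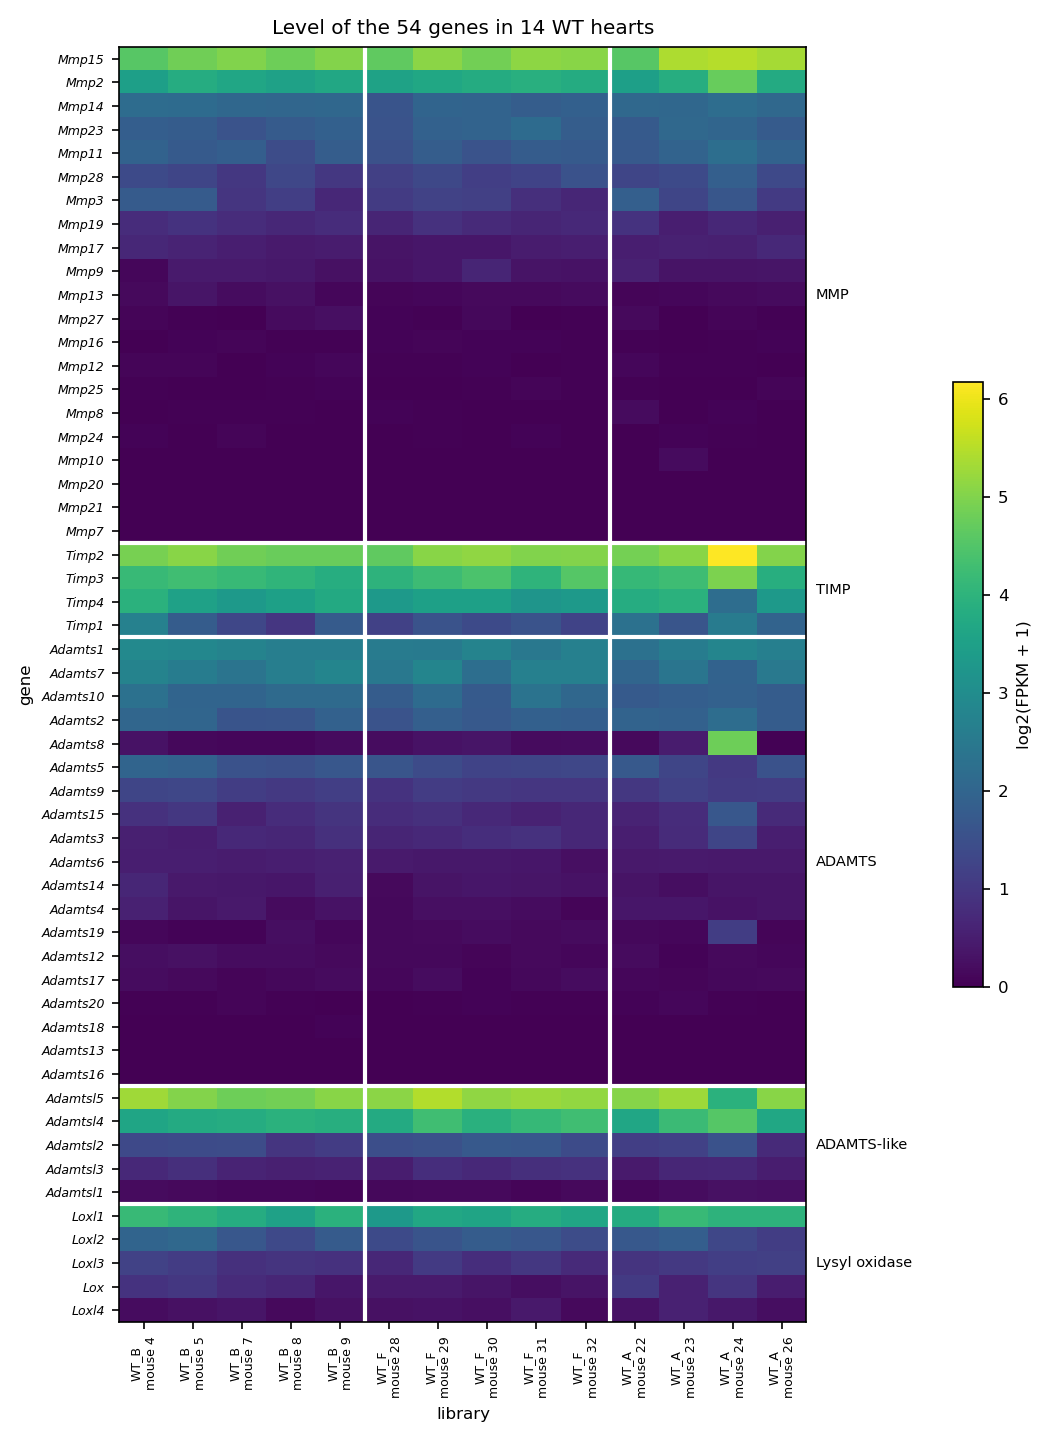
Level of each of the 54 genes (rows, by branch and by mean level) in each of the 14 libraries (columns, WT_B, WT_F and WT_A from left to right), as log2(FPKM + 1) on the colour scale. The bright rows are Mmp15, Mmp2, Timp2, Timp3, Timp4, Adamtsl5, Adamtsl4 and Loxl1, and the single bright cell in the ADAMTS block is Adamts8 in mouse 24, at 26.9 FPKM.

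Membrane-type MMPs are anchored at the cell surface. Mmp15 was the most abundant MMP, at 22.7, 27.6, 30.9, 26.9 and 31.6 FPKM in WT_B hearts, 24.4, 33.4, 28.2, 33.9 and 32.6 FPKM in WT_F hearts and 22.6, 41.3, 44.1 and 39.6 FPKM in WT_A hearts. Mouse 22 was the lowest of the 14 and the other 3 WT_A hearts were the highest, so that WT_A spanned the whole range. Mmp15 made up 47.6% to 60.8% of the summed MMP level in each heart. Mmp14, which activates the proenzyme of Mmp2 together with Timp2, was at 3.57, 3.43, 3.19, 3.13 and 3.18 FPKM in WT_B hearts, 2.05, 2.96, 2.89, 2.51 and 2.69 FPKM in WT_F hearts and 3.22, 3.19, 3.62 and 3.27 FPKM in WT_A hearts. It varied little within WT_B and WT_A, and the 5 WT_F hearts lay below all 9 others. Among genes tested, 5.23% had no overlap in WT_B against WT_F and 1.56% in WT_F against WT_A. The share with 1 group apart from all 9 others was not counted. Mmp17 was at 0.602, 0.521, 0.424, 0.365 and 0.381 FPKM in WT_B hearts, 0.248, 0.295, 0.287, 0.377 and 0.443 FPKM in WT_F hearts and 0.43, 0.478, 0.459 and 0.636 FPKM in WT_A hearts. Its groups overlapped, and Mmp16, Mmp24 and Mmp25 were at most at 0.0588 FPKM in any heart.

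The gelatinases digest denatured collagen and basement membrane. Mmp2 was at 10.3, 13.1, 11.6, 10.6 and 11.98 FPKM in WT_B hearts, 10.8, 11.8, 12.8, 13.9 and 12.8 FPKM in WT_F hearts and 10.3, 13.3, 25.4 and 12.7 FPKM in WT_A hearts. Mouse 24 was the highest, and the values of the other 13 hearts lay between 10.3 and 13.9 FPKM. Mmp9, a gelatinase stored in neutrophil granules, was at 0.0742, 0.3698, 0.373, 0.311 and 0.217 FPKM in WT_B hearts, 0.232, 0.288, 0.559, 0.2503 and 0.238 FPKM in WT_F hearts and 0.477, 0.246, 0.247 and 0.283 FPKM in WT_A hearts. These values rest on 6 to 54 fragments per heart and overlapped between all groups. Mmp15 and Mmp2 together gave 69.1% to 80.6% of the MMP sum.

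Among stromelysins, Mmp11, which furin activates inside the cell, was at 2.84, 2.38, 2.62, 1.72 and 2.54 FPKM in WT_B hearts, 1.87, 2.51, 1.99, 2.49 and 2.35 FPKM in WT_F hearts and 2.32, 2.93, 3.7 and 2.87 FPKM in WT_A hearts. The groups overlapped, with mouse 24 highest. Mmp3, which cleaves proteoglycans and activates other proMMPs, was at 2.43, 2.41, 0.947, 1.199 and 0.608 FPKM in WT_B hearts, 1.09, 1.32, 1.25, 0.782 and 0.57 FPKM in WT_F hearts and 2.66, 1.45, 2.13 and 1.08 FPKM in WT_A hearts. Mice 22, 4, 5 and 24 were the high hearts, at 2.13 FPKM or more, and the groups overlapped, with WT_F reaching 1.32 FPKM. Mmp10, a close relative of Mmp3, was all but absent, with 7 fragments in mouse 23 and 0 in the other 13 hearts. Of the remaining MMPs, Mmp23, a type II membrane protein, was at 2.56, 2.49, 1.999, 2.41 and 2.74 FPKM in WT_B hearts, 1.97, 2.79, 2.89, 3.48 and 2.52 FPKM in WT_F hearts and 2.37, 3.27, 3.04 and 2.398 FPKM in WT_A hearts. Mmp28 (epilysin) was at 1.62, 1.44, 0.995, 1.47 and 0.9898 FPKM in WT_B hearts, 1.25, 1.51, 1.22, 1.35 and 1.95 FPKM in WT_F hearts and 1.46, 1.597, 2.62 and 1.58 FPKM in WT_A hearts. Mmp19 was at 0.731, 0.859, 0.732, 0.599 and 0.713 FPKM in WT_B hearts, 0.555, 0.841, 0.661, 0.558 and 0.633 FPKM in WT_F hearts and 0.859, 0.423, 0.613 and 0.468 FPKM in WT_A hearts. All 3 overlapped between groups, and Mmp28 was highest in mouse 24.

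The collagenases were scarce. Mmp13 was at 0.115, 0.267, 0.144, 0.222 and 0.08197 FPKM in WT_B hearts, 0.0683, 0.0794, 0.118, 0.1205 and 0.137 FPKM in WT_F hearts and 0.0585, 0.07803, 0.109 and 0.131 FPKM in WT_A hearts, on 4 to 14 fragments per heart. Mmp8, the collagenase of neutrophils, was at 0, 0.0245, 0.0227, 0.0175 and 0 FPKM in WT_B hearts, 0.0377, 0.0175, 0, 0.0166 and 0 FPKM in WT_F hearts and 0.142, 0, 0.0343 and 0 FPKM in WT_A hearts. Its highest value was in mouse 22, the heart with the highest neutrophil marker sum, and it rests on 11 fragments. Mmp12, the macrophage elastase, was between 0 and 0.0757 FPKM, and Mmp27 between 0 and 0.198 FPKM.

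Many of the scarce MMP genes lie together in the genome. In RefSeq (GRCm38.p6) the members Mmp13, Mmp12, Mmp3, Mmp10, Mmp8, Mmp27, Mmp20 and Mmp7 form a run on chromosome 9, broken among protein-coding genes by Mmp1b and Mmp1a alone. Only Mmp3 of these 8 had a mean above 1 FPKM over the 14 hearts, at 1.42 FPKM, and the next was Mmp13 at 0.124 FPKM. RefSeq promoter windows, which run 250 bases before to 50 after the annotated start, were found for 35 of the 54 genes, and 3 motifs were searched on both strands. Abundant members such as Mmp2, Loxl1 and Adamts7 had no window, nor had scarce ones such as Mmp16 and Adamts16. The motif counts and levels below therefore cover the 35 alone. TGANTCA, with any base at N, was searched as AP-1 letters, a pattern broader than the AP-1 site, which has G or C at N. It occurred in the windows of 6 of the 35 members, against 7.81% of all 32851 windows. These 6 were Mmp3, Mmp7, Mmp10, Mmp12, Mmp13 and Mmp20, and all 6 also held TATAAA, a pair found in 1.54% of all windows. The GC box GGGCGG occurred in the windows of 23 members, against 35.7% of all windows, and among them were those of Mmp15, Mmp14, Timp1, Timp2, Timp3, Adamtsl4 and Adamtsl5. The mean level had a median of 0.0219 FPKM over the 6 genes with AP-1 letters and 1.57 FPKM over the 23 with a GC box, and 6 members with neither had a median of 0.0797 FPKM. Timp4 had neither motif and was at 10.3 FPKM on average. Members were counted by gene, with 38 windows for the 35, whereas the shares of all windows were counted by window, so the units differ. A match describes the letters alone, and binding was not measured.

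The 250 bases before the start are printed for a pair of genes of the chromosome 9 run, 1 expressed and 1 scarce, and for the most abundant MMP and inhibitor, with every match to the 3 motifs in capitals (GRCm38.p6, 5′ to 3′ on the gene's strand). No matches overlapped in these windows.
Mmp3, chr9:7445572-7445821, plus strand: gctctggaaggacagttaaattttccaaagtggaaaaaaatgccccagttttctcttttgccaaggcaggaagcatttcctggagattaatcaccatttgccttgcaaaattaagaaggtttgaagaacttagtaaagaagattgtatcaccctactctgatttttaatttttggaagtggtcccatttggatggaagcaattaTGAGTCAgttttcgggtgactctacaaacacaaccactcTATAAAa
Mmp13, chr9:7272264-7272513, plus strand: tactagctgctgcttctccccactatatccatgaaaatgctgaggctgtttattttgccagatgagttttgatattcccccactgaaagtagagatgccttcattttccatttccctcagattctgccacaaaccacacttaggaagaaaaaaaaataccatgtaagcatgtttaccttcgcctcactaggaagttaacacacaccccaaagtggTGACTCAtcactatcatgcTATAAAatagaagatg
Mmp15, chr8:95352046-95352295, plus strand: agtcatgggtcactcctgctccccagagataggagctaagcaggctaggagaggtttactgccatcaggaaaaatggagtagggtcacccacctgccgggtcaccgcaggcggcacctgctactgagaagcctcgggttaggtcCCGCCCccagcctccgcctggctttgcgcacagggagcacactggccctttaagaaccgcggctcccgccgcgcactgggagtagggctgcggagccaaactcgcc
Timp2, chr11:118355412-118355661, minus strand: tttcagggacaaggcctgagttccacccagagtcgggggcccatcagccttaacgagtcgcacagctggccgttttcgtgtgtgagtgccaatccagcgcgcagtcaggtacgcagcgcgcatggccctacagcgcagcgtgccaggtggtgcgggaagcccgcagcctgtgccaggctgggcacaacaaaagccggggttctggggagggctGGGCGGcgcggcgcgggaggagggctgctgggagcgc
In Mmp3 the AP-1 letters began 46 bases and the TATA letters 7 bases before the annotated start, and in Mmp13 35 and 16 bases before it. Mmp15 and Timp2 each held 1 GC box and neither of the other motifs. Mmp3 and Mmp13 thus shared both motifs while their mean levels were 1.42 and 0.124 FPKM.

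**Figure D2:**
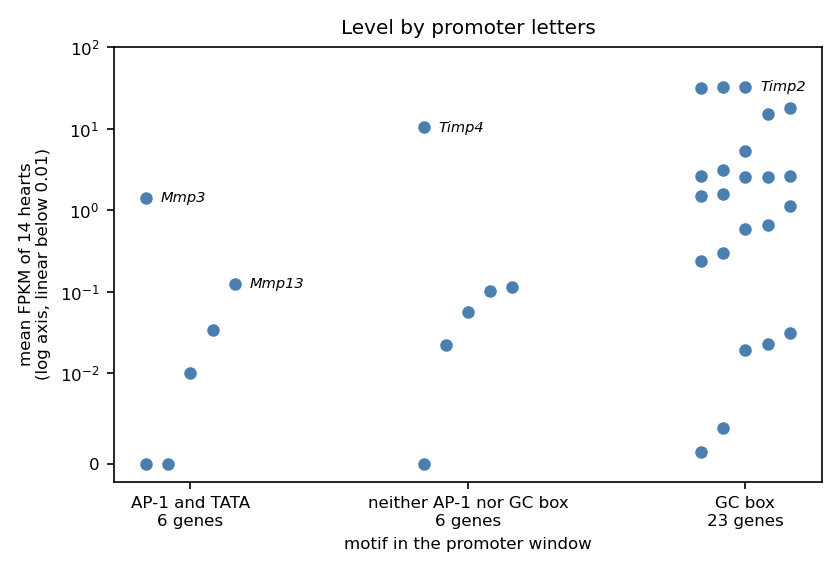
Mean FPKM over the 14 hearts (vertical axis, logarithmic above 0.01 and linear below) of the 35 genes with a promoter window, 1 point per gene, by the motifs found. The 6 genes with AP-1 and TATA letters lie between 0 and 1.42 FPKM, and the 23 with a GC box between 0.00128 and 32.8 FPKM, so the classes overlap widely.

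Of the inhibitors, Timp2, which both inhibits MMPs and helps Mmp14 activate Mmp2, was the most abundant, at 28.8, 32.6, 27.4, 25.99 and 26.2 FPKM in WT_B hearts, 24.5, 32.6, 34.3, 31.1 and 31.4 FPKM in WT_F hearts and 28.4, 32.7, 70.99 and 31.6 FPKM in WT_A hearts. Mouse 24 was far above the other 13 hearts, which lay within 24.5 to 34.3 FPKM. Timp3, which stays bound to the matrix, was at 16.9, 18.4, 16.8, 15.4 and 13.2 FPKM in WT_B hearts, 14.8, 17.7, 20.4, 15.1 and 22.4 FPKM in WT_F hearts and 16.5, 17.9, 30.03 and 13.6 FPKM in WT_A hearts. Mouse 24 was again the highest, and the groups overlapped. Timp4, known for its expression in the heart, was at 14.3, 10.6, 8.96, 10.4 and 12.4 FPKM in WT_B hearts, 9.08, 10.3, 10.4, 8.36 and 9.15 FPKM in WT_F hearts and 13.2, 14.4, 3.64 and 9.04 FPKM in WT_A hearts. Here mouse 24 was the lowest of all. Timp1, an inhibitor induced by injury and cytokines, was at 5.57, 2.48, 1.49, 0.954 and 2.41 FPKM in WT_B hearts, 1.28, 2.01, 1.604, 1.995 and 1.36 FPKM in WT_F hearts and 3.94, 2.11, 4.97 and 2.93 FPKM in WT_A hearts. Mouse 4 and mouse 24 were highest, and all 5 WT_F hearts lay below all 4 WT_A hearts. Timp1 is short, and its values rest on 20 to 113 fragments per heart.

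Mouse 24 stood apart in the composition of the inhibitors, and their shares also varied among the other hearts. Timp2 gave 44.0% to 55.2% of the summed TIMP level in 13 hearts and 64.8% in mouse 24, and Timp4 gave 14.2% to 22.9% in 13 hearts and 3.32% in mouse 24. Over all hearts Timp3 gave 23.8% to 34.9% and Timp1 1.81% to 8.49%. Summed TIMP over summed MMP FPKM was 1.121 ± 0.16 in WT_B (n = 5), 1.104 ± 0.11 in WT_F (n = 5) and 1.113 ± 0.22 in WT_A (n = 4, all SD). These means differed by less than the SD within any group.

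Among ADAMTS enzymes that cut versican and aggrecan, Adamts1 was the most abundant outside mouse 24 by its mean, at 6.497, 6.29, 5.82, 5.22 and 5.23 FPKM in WT_B hearts, 4.97, 4.81, 5.74, 4.58 and 5.45 FPKM in WT_F hearts and 3.96, 5.07, 6.02 and 5.38 FPKM in WT_A hearts. Mouse 22 was the lowest, and the groups overlapped. Adamts5, an enzyme of versican and aggrecan turnover, was at 2.99, 2.78, 1.95, 1.86 and 2.19 FPKM in WT_B hearts, 2.102, 1.66, 1.35, 1.46 and 1.49 FPKM in WT_F hearts and 2.31, 1.45, 1.03 and 1.91 FPKM in WT_A hearts. Mice 4 and 5 of WT_B were highest and mouse 24 lowest. Adamts8 was at 0.228, 0.0903, 0.0835, 0.0826 and 0.131 FPKM in WT_B hearts, 0.158, 0.239, 0.283, 0.1397 and 0.143 FPKM in WT_F hearts and 0.115, 0.377, 26.9 and 0.0326 FPKM in WT_A hearts. It was barely detected in 13 hearts, on 3 to 50 fragments each, and was the leading ADAMTS gene of mouse 24, on 2976 fragments. Adamts9 was between 0.868 and 1.49 FPKM and Adamts15 between 0.489 and 2.19 FPKM, while Adamts4 and Adamts20 stayed below 0.5 FPKM in every heart.

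The procollagen N-proteinases remove the amino-terminal propeptide of fibrillar collagens. Adamts2 was at 3.104, 3.02, 2.04, 2.08 and 2.799 FPKM in WT_B hearts, 1.995, 2.65, 2.33, 2.69 and 2.596 FPKM in WT_F hearts and 2.88, 2.79, 3.63 and 2.48 FPKM in WT_A hearts. Adamts3 was at 0.451, 0.405, 0.649, 0.593 and 0.807 FPKM in WT_B hearts, 0.555, 0.641, 0.743, 0.838 and 0.608 FPKM in WT_F hearts and 0.4205, 0.698, 1.43 and 0.434 FPKM in WT_A hearts. Adamts14 was at 0.573, 0.343, 0.307, 0.293 and 0.464 FPKM in WT_B hearts, 0.123, 0.245, 0.297, 0.271 and 0.226 FPKM in WT_F hearts and 0.253, 0.174, 0.264 and 0.2795 FPKM in WT_A hearts. Adamts2 was above both relatives in every heart, and mouse 24 was the highest for Adamts2 and Adamts3. All 5 WT_B values of Adamts14, which was not tested, lay above all 4 WT_A values, where 6.91% of genes tested had no overlap. Adamts7, which cleaves the matrix protein COMP, was at 5.75, 4.98, 4.15, 5.27 and 6.03 FPKM in WT_B hearts, 4.53, 6.04, 3.697, 5.44 and 5.48 FPKM in WT_F hearts and 3.03, 4.24, 2.82 and 4.66 FPKM in WT_A hearts. Mice 24 and 22 of WT_A were the lowest of the 14. Its relative Adamts12 was at 0.168, 0.207, 0.151, 0.143 and 0.1204 FPKM in WT_B hearts, 0.0878, 0.105, 0.05797, 0.122 and 0.0705 FPKM in WT_F hearts and 0.126, 0.0414, 0.114 and 0.0826 FPKM in WT_A hearts. Adamts12 was low in every heart, on 13 to 44 fragments.

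Adamts13, the von Willebrand factor protease that is made mainly in the liver, gave 1 fragment each in 2 WT_F hearts and 0 in the other 12. Adamts10, which binds fibrillin, was at 3.91, 2.94, 2.96, 3.397 and 3.35 FPKM in WT_B hearts, 2.49, 3.49, 2.34, 4.09 and 3.19 FPKM in WT_F hearts and 2.38, 2.61, 2.77 and 2.45 FPKM in WT_A hearts. All 5 WT_B hearts lay above all 4 WT_A hearts, and WT_F spanned both. Adamts6 was at 0.427, 0.427, 0.381, 0.434 and 0.471 FPKM in WT_B hearts, 0.357, 0.3103, 0.315, 0.305 and 0.198 FPKM in WT_F hearts and 0.345, 0.352, 0.336 and 0.341 FPKM in WT_A hearts. All 5 WT_B hearts lay above the 9 others, at a low level, and the gene did not pass the filter for testing. Among genes tested, 5.23% had no overlap in WT_B against WT_F and 6.91% in WT_B against WT_A. The share that set 1 group apart from all 9 other hearts was not counted. Adamts19 was at 0.0748, 0.0381, 0.0431, 0.172 and 0.0819 FPKM in WT_B hearts, 0.0975, 0.124, 0.144, 0.1205 and 0.136 FPKM in WT_F hearts and 0.0958, 0.0768, 1.18 and 0.0571 FPKM in WT_A hearts. As for Adamts8, mouse 24 alone was above 1 FPKM. Adamts17 and Adamts18 reached at most 0.159 and 0.0377 FPKM.

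Of the ADAMTS-like genes, which have no protease activity, Adamtsl5 was at 38.2, 31.5, 27.2, 27.9 and 32.4 FPKM in WT_B hearts, 33.05, 42.8, 34.3, 37.1 and 35 FPKM in WT_F hearts and 32.2, 37.3, 14.5 and 32.6 FPKM in WT_A hearts. Mouse 24 was the lowest, and the other 13 hearts lay within 27.2 to 42.8 FPKM. Adamtsl4, whose product binds fibrillin microfibrils, was at 11.3, 12.6, 13.03, 14.4 and 13.7 FPKM in WT_B hearts, 12.6, 18.3, 14.1, 16.6 and 18.2 FPKM in WT_F hearts and 11.6, 17.5, 22.5 and 11.7 FPKM in WT_A hearts. The groups overlapped and mouse 24 was the highest. Adamtsl2, which binds latent TGF beta binding protein, was at 1.55, 1.66, 1.701, 0.932 and 1.14 FPKM in WT_B hearts, 1.79, 1.91, 2.28, 2.21 and 1.64 FPKM in WT_F hearts and 1.197, 1.3, 1.94 and 0.652 FPKM in WT_A hearts. Mouse 26 was the lowest, and WT_F was the narrowest group. Adamtsl1 and Adamtsl3 stayed below 1 FPKM in every heart. Adamtsl4 and Adamtsl5 gave 93.1% to 97.3% of the ADAMTS-like sum. The summed ADAMTS-like level over the summed ADAMTS enzyme level was 1.91 to 2.06 in WT_B, 2.49 to 2.82 in WT_F, and 2.24 to 2.80 in 3 WT_A hearts, with 0.794 in mouse 24. WT_B and WT_F did not overlap in this ratio, which was chosen after its values were seen and was not tested. Of single genes tested, 5.23% had no overlap between these groups, and Adamtsl4 and Adamtsl5 each overlapped.

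Of the lysyl oxidases, Loxl1, which acts on elastin, was at 16.9, 15.3, 13.1, 10.6 and 14.2 FPKM in WT_B hearts, 8.93, 12.03, 11.2, 13.1 and 11.6 FPKM in WT_F hearts and 13, 16.9, 14.9 and 14.8 FPKM in WT_A hearts. It gave 73.3% to 83.0% of the lysyl oxidase sum, and mouse 28 was the lowest heart. Loxl2, which acts on basement membrane collagen, was at 2.96, 3.23, 2.17, 1.57 and 2.402 FPKM in WT_B hearts, 1.605, 2.06, 2.44, 2.17 and 1.703 FPKM in WT_F hearts and 2.26, 2.58, 1.47 and 1.19 FPKM in WT_A hearts. Loxl3 was at 1.32, 1.15, 0.801, 0.902 and 0.833 FPKM in WT_B hearts, 0.605, 1.08, 0.748, 1.01 and 0.661 FPKM in WT_F hearts and 0.904, 1.05, 1.202 and 1.25 FPKM in WT_A hearts. Both overlapped between the groups. Lox, the founding member that crosslinks fibrillar collagen and elastin, was at 0.861, 0.984, 0.6796, 0.585 and 0.298 FPKM in WT_B hearts, 0.363, 0.364, 0.265, 0.169 and 0.245 FPKM in WT_F hearts and 1.08, 0.473, 0.923 and 0.419 FPKM in WT_A hearts. Mouse 22 was the highest, 4 of 5 WT_B hearts lay above every WT_F heart, and all 4 WT_A hearts did so too. Lox did not pass the filter in WT_F against WT_A, where 1.56% of genes tested had no overlap. Loxl4 was between 0.121 and 0.4703 FPKM.

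Each pair of groups was compared by limma on log2(FPKM + 1), with a filter that kept a gene if 4 or more libraries of the pair reached 0.5 FPKM and with p-values adjusted over all genes tested. Since 1 is added to every value, differences of genes near or below 1 FPKM come out too small. Each group enters 2 of the 3 comparisons, so these share libraries, and p-values measure only the spread between these mice. Of the 54 genes, 28 passed the filter in WT_B against WT_F, 28 in WT_B against WT_A and 27 in WT_F against WT_A. No member had an adjusted p under 0.05 in any comparison.

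In WT_B against WT_F hearts, the members with the smallest p were Lox, Adamts5 and Mmp14, higher in WT_B, and Adamtsl2, higher in WT_F, each short of the threshold. None of 28 members was called by limma at an adjusted p under 0.05, where 1.61% of all 12894 genes were called. At an unadjusted p under 0.05 there were 7 members (5 higher and 2 lower in WT_B), where 25.8% of all genes were so, and voom on recovered fragments also called 0. Lox averaged 0.681 ± 0.265 FPKM in WT_B and 0.281 ± 0.0834 FPKM in WT_F (SD, n = 5 each), a log2 difference of 0.38 (SE 0.11, limma unadjusted p = 0.00522, adjusted p = 0.0789). No WT_F heart reached the 0.5 FPKM of the filter for Lox (at most 0.364 FPKM), so it was tested through WT_B hearts alone. Its p-values and calls in this comparison therefore give no support for a difference. For Adamts5, the means were 2.36 ± 0.51 FPKM in WT_B and 1.61 ± 0.30 FPKM in WT_F, a log2 difference of 0.36 (SE 0.11, limma unadjusted p = 0.00915, adjusted p = 0.0955). Mmp14 had a log2 difference of 0.25 (SE 0.08, limma unadjusted p = 0.00949, adjusted p = 0.0962), and its groups did not overlap. It was the only tested member without overlap, where 5.23% of all genes had none. Adamts6, which was not tested, had none either. On the other side, Adamtsl2 had a log2 difference of -0.31 (SE 0.11, limma unadjusted p = 0.0144, adjusted p = 0.113) and Adamtsl4 a log2 difference of -0.27 (SE 0.11, limma unadjusted p = 0.0319, adjusted p = 0.155). Adamts9 and Loxl1 were the other 2 of the 7, at log2 differences of 0.19 and 0.28. Without mouse 28 they were 0.16 (limma unadjusted p = 0.07) and 0.20 (limma unadjusted p = 0.116). The median difference was 0.07 over the 28 members and -0.03 over all genes tested. Without mouse 28 of WT_F, whose mitochondrial share lay within the range of WT_B, limma called 3 members: Lox at 0.40 (adjusted p = 0.0361), Adamts5 at 0.42 (adjusted p = 0.0217) and Adamtsl4 at -0.34 (adjusted p = 0.0273), where 20.7% of all genes were called. Without mouse 9 of WT_B it called Lox alone, at 0.47 (adjusted p = 0.0344), where 2.22% of all genes were called. With the mitochondrial share as a covariate the Adamtsl4 difference was 0.0040 and no member was called, where 0.0853% of all genes were called.

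In WT_B against WT_A hearts, both male, no member was called of 28, where 0.322% of 12745 genes were called. At an unadjusted p under 0.05 there were 2 members, where 22.5% of all genes were so, and voom called 0. These were Adamts7, with a log2 difference of 0.42 (SE 0.15, limma unadjusted p = 0.0153, adjusted p = 0.1498), and Adamts10, with a log2 difference of 0.28 (SE 0.10, limma unadjusted p = 0.0166, adjusted p = 0.153). Adamts7 averaged 5.24 ± 0.73 FPKM in WT_B (n = 5) and 3.69 ± 0.90 FPKM in WT_A (n = 4), and Adamts10 averaged 3.31 ± 0.40 FPKM in WT_B and 2.55 ± 0.17 FPKM in WT_A. Without mouse 24 the differences were 0.33 (adjusted p = 0.188) and 0.31 (adjusted p = 0.128), and without mice 22 and 24 they were 0.19 (adjusted p = 0.281) and 0.29 (adjusted p = 0.0731). Adamts10 was the only tested member without overlap, where 6.91% of all genes had none. Adamts6 and Adamts14, which were not tested, had none either. The median difference was -0.08 over the members and -0.04 over all genes. The abundant Mmp15 averaged 27.9 ± 3.5 FPKM in WT_B and 36.9 ± 9.7 FPKM in WT_A, a log2 difference of -0.35 (SE 0.19, limma unadjusted p = 0.0963, adjusted p = 0.296). Without mouse 22 of WT_A, which shares the high mitochondrial percentage of WT_B, the difference was -0.57 (adjusted p = 0.0153), the only member called, where 19.0% of all genes were called. Over all alternatives its adjusted p ran between 0.0102 and 0.994. With the mitochondrial share as a covariate it was 0.16 (limma unadjusted p = 0.430, adjusted p = 0.994).

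In WT_F against WT_A hearts, both of the first cohort, the members with the smallest p were Timp1, Loxl1 and Mmp3, lower in WT_F, all far from the threshold after adjustment. No member was called of 27, where 0.0240% of 12483 genes were called. At an unadjusted p under 0.05 there were 7 members (2 higher and 5 lower in WT_F), where 3.85% of all genes were so, and voom called 0. Timp1 averaged 1.65 ± 0.34 FPKM in WT_F (n = 5) and 3.49 ± 1.24 FPKM in WT_A (n = 4), a log2 difference of -0.73 (SE 0.18, limma unadjusted p = 0.00271, adjusted p = 0.7196). Loxl1 averaged 11.4 ± 1.5 FPKM in WT_F and 14.9 ± 1.6 FPKM in WT_A, a log2 difference of -0.36 (SE 0.12, limma unadjusted p = 0.0134, adjusted p = 0.9997). Mmp3 had a log2 difference of -0.48 (SE 0.18, limma unadjusted p = 0.0246, adjusted p = 0.9997), Mmp14 a log2 difference of -0.26 (SE 0.10, limma unadjusted p = 0.0279, adjusted p = 0.9997), and Mmp11 a difference of -0.28. Adamtsl2 and Adamts7 lay the other way, at 0.41 and 0.37. Timp1 and Mmp14 were the 2 tested members without overlap, where 1.56% of all genes had none. Adamts4 and Lox, which were not tested here, had none either. The median difference was -0.06 over the members and -0.0019 over all genes. Without mouse 24 the Timp1 difference was -0.58 (adjusted p = 0.941) and that of Mmp3 -0.42 (adjusted p = 0.992). Without mice 22, 24 and 28 they were -0.36 (adjusted p = 0.348) and -0.21 (limma unadjusted p = 0.273, adjusted p = 0.590), and that of Adamts7 was 0.16. In the same fit Mmp14 was at -0.17 (limma unadjusted p = 0.126) and Mmp11 at -0.23 (limma unadjusted p = 0.0655). Loxl1 was at -0.38 (limma unadjusted p = 0.00593) and Adamtsl2 at 0.62 (limma unadjusted p = 0.00435), each with an adjusted p of 0.3405. In no alternative tried was a member called, and the Timp1 difference ranged over them from -1.02 to -0.34 (adjusted p 0.348 to 1.00).

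**Figure D3:**
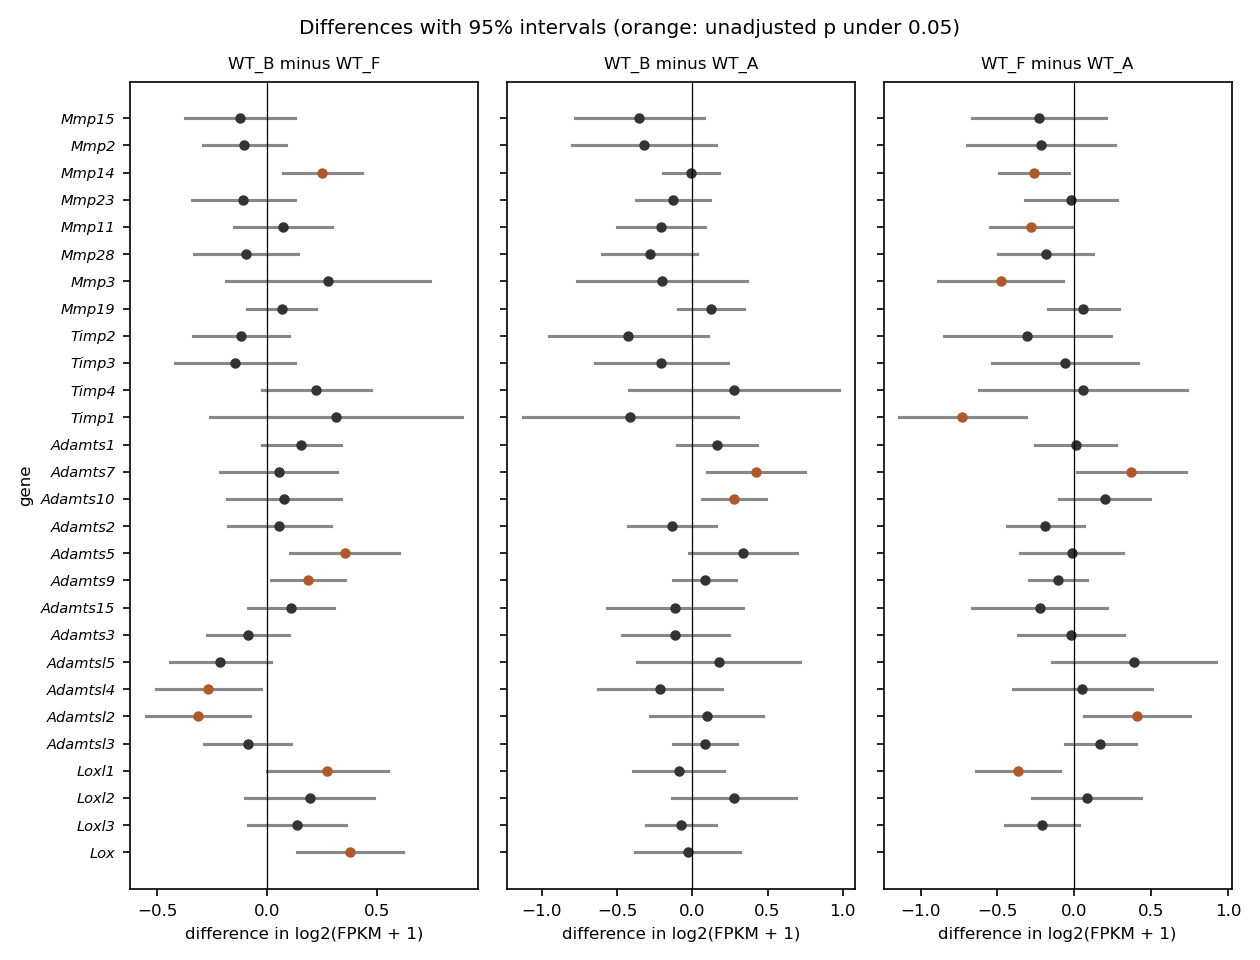
Difference in log2(FPKM + 1) for the members tested (rows), WT_B minus WT_F, WT_B minus WT_A and WT_F minus WT_A from left to right, with 95% intervals as bars. Orange points have an unadjusted p under 0.05 (7, 2 and 7 genes), and none had an adjusted p under 0.05.

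The intervals say what sizes the data allow. For Timp2 the 95% interval of the log2 difference was -0.34 to 0.10 in WT_B against WT_F and -0.95 to 0.10 in WT_B against WT_A, where the difference itself was -0.42 with mouse 24 in the fit and -0.13 without it. For Mmp2 it was -0.29 to 0.09 in WT_B against WT_F and -0.80 to 0.16 in WT_B against WT_A, where the difference was -0.32 with mouse 24 in the fit and -0.06 without it. Mmp14 was tight in WT_B against WT_A, at -0.19 to 0.18.

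**Figure D4:**
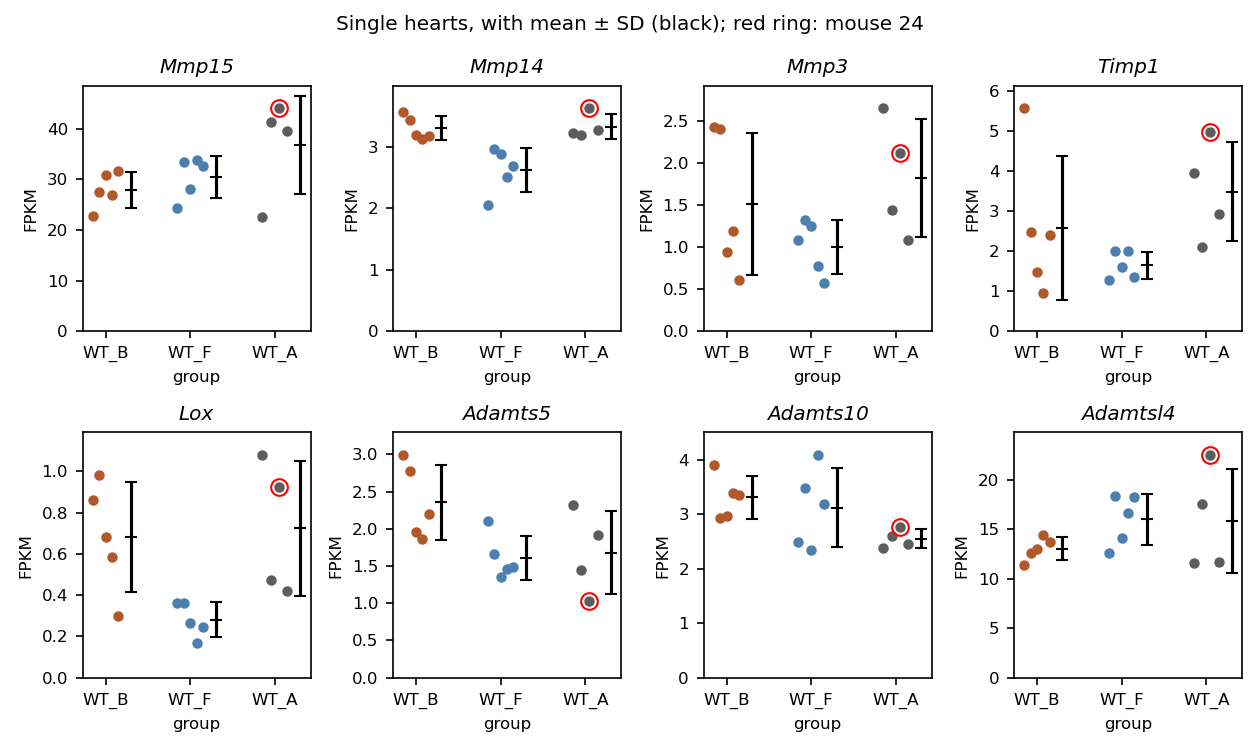
FPKM of 8 genes in single hearts (points), by group, with the mean and SD of each group in black and mouse 24 ringed in red. The 5 WT_F hearts lie below all others for Mmp14, WT_A lies below WT_B for Adamts10, and mouse 22 is the low WT_A point for Mmp15, at 22.6 FPKM.

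Mouse 24 of WT_A stood at an end of the range for more members than any other heart. Of 28 members at 0.5 FPKM or more in at least 4 of the 14 libraries, it was the highest heart for 11 and the lowest for 4, or 15 in all, against at most 7 for any other heart. Over all genes, 40.1% put mouse 24 at either end. Adamts8 was at 26.9 FPKM in mouse 24, against a median of 0.140 FPKM in the other 13 hearts, 192 times as high. It took 53.6% of the summed ADAMTS level there, against at most 1.85% elsewhere. Adamts19 was 12.4 times and Adamts15 3.09 times the median of the others. Timp2 was 2.28 times, Mmp2 2.13 times and Adamts3 2.35 times that median, whereas Timp4 was 0.349 times and Adamtsl5 0.438 times it. Beside these, all 6 atrial markers were above their range in the others, with Myl7 at 4235 FPKM, against 0 to 2.003, and Nppa at 6156 FPKM, against 21.7 to 232, whereas Dhrs9 was at 0.0681 FPKM. All 5 endocardial markers were above their range in the others, for example Plvap at 124 FPKM, against 1.75 to 4.497. Of the 6 valve and cartilage markers, Comp was at 18.9 FPKM, against 0.135 to 1.24, and Acan, Col2a1 and Col9a1 were at 0. The 6 epicardial and mesothelial markers summed to 11.5 FPKM, against 0.550 to 6.15. Of these, 5 were above their range in the others and Wt1 was below it, at 0.316 FPKM, against 0.469 to 1.25. The 5 red cell markers summed to 2717 FPKM, against 650 to 2007, all 5 above their range. The 8 smooth muscle and pericyte markers summed to 74.3 FPKM, against 114 to 332, with 4 below their range and 0 above. Of 8 cardiomyocyte markers, 3 (Mybpc3, Tnni3 and Tnnt2) were below their range in the others and 0 above, and their sum lay inside it. Of 10 macrophage markers, 3 were below and 1 above their range, and their sum lay inside it. Of 8 endothelial markers, 3 were above and 2 below their range, and their sum lay inside it. Of 10 fibroblast markers, 4 were above their range in the others: Dpt at 52.9 FPKM, against at most 44.5, Col3a1 at 22.2, against at most 19.8, Lum at 22.8, against at most 21.98, and Postn at 5.79, against at most 5.57. The other 6 lay inside it. The part of these cell types in the member levels was not tested.

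**Figure D5:**
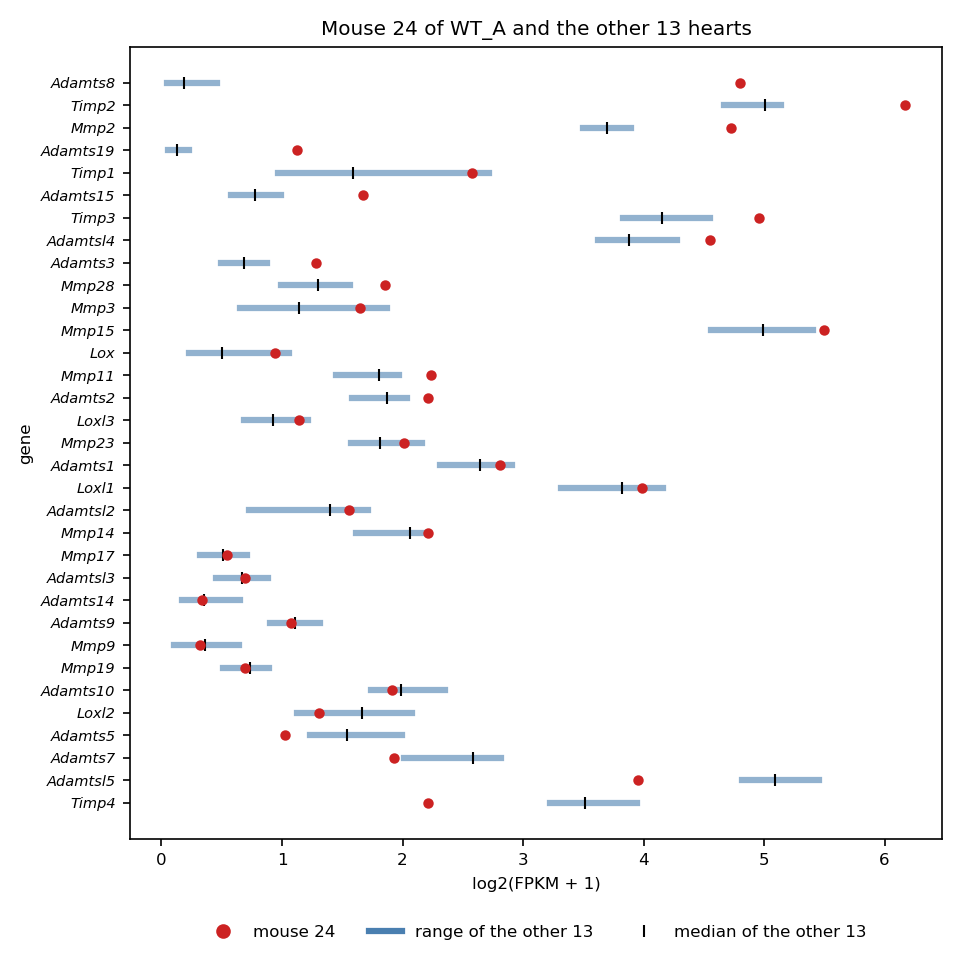
log2(FPKM + 1) of each gene that reached 0.5 FPKM in any heart (rows), in mouse 24 (red points) and over the other 13 hearts (blue bar, range; black tick, median). Adamts8 lies farthest above its bar, at 26.9 against at most 0.377 FPKM, and Timp4, Adamtsl5, Adamts5 and Adamts7 lie below theirs.

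Timp1, Mmp3 and Lox varied together from heart to heart, a description chosen after the values were seen. The 14 hearts differ in group and in mitochondrial share, and mouse 24 also differs in its atrial and ventricular markers. Over all 14, Pearson's r of log2(FPKM + 1) was 0.87 for Mmp3 with Lox, 0.68 for Timp1 with Mmp3 and 0.60 for Timp1 with Lox. The high hearts for Timp1 were mice 4, 22 and 24. Without mouse 24 alone, r over 13 hearts was 0.855 for Mmp3 with Lox, 0.64 for Timp1 with Mmp3 and 0.53 for Timp1 with Lox. Without all 3, r over 11 hearts was 0.74 for Mmp3 with Lox, 0.22 for Timp1 with Mmp3 and 0.07 for Timp1 with Lox. These hearts were taken by their Timp1 level, and leaving out the top of its range lowers r by itself.

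Genes that work with these enzymes were read from 4 lists. In WT_B against WT_F hearts, 1 of 26 tested genes for protease activation and clearance fell, 2 of 26 matrix substrates rose, 1 of 17 hydroxylation and crosslinking partners rose, and 0 of 16 TGF beta pathway genes passed the test. At an unadjusted p under 0.05 there were 9, 10, 4 and 1, or 24 of 85, where 25.8% of all genes were so. Voom, which called 4.05% of all genes, called 2, 2, 2 and 0, adding Serpine2 (higher in WT_B) and P4hb (lower). Beside the 1.61% of all genes called, the median differences were -0.01, 0.19, -0.0036 and 0.02. Furin, the convertase that activates membrane-type MMPs and Mmp11, fell to 14.9 ± 1.0 FPKM in WT_B, against 19.3 ± 1.6 FPKM in WT_F (log2 difference -0.35, limma adjusted p = 0.0466). Eln, which encodes elastin, rose to 4.45 ± 0.72 FPKM in WT_B, against 2.48 ± 0.39 FPKM in WT_F (0.64, limma adjusted p = 0.0263). Col3a1, a fibrillar collagen chain, rose to 17.3 ± 1.7 FPKM in WT_B, against 11.99 ± 1.80 FPKM in WT_F (0.50, limma adjusted p = 0.0429). Efemp1, a fibulin, rose to 5.46 ± 0.47 FPKM in WT_B, against 2.39 ± 0.67 FPKM in WT_F (0.95, limma adjusted p = 0.00609, SD and n = 5 throughout). Leaving out 1 heart at a time, Efemp1 stayed called in all 10 fits (largest adjusted p = 0.0283), Eln in 3 (without mouse 7, 9 or 28; largest adjusted p = 0.0756), Furin in 2 (without mouse 9 or 28; largest adjusted p = 0.117) and Col3a1 in 1 (without mouse 28; largest adjusted p = 0.111). In WT_B against WT_A and in WT_F against WT_A, limma called 0 genes of the 4 lists, where 0.322% and 0.0240% of all genes were called. Of 86 list entries tested in each of these comparisons, 13 and 9 had an unadjusted p under 0.05, where 22.5% and 3.85% of all genes did, and voom called 0. Without mice 22, 24 and 28, limma called 3 higher and 3 lower of the activation list in WT_B against WT_F, 4 higher and 1 lower of the substrates, 2 and 2 of the crosslinking partners and 1 higher of the TGF beta list, where 20.7% of all genes were called. In WT_B against WT_A without these mice it called 2 higher and 4 lower, 3 higher and 0 lower, 2 and 2, and 1 and 1 in the same lists, where 33.8% of all genes were called, and in WT_F against WT_A 0 in all 4, where 0.00841% were called.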

How the data were processed

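RNA from heart tissue of 14 WT mice was sequenced after poly-T selection, and the authors counted fragments per gene with featureCounts and deposited FPKM values; the submitters' processing notes name the build GRCm39 and DESeq2. The knockdown and treated hearts were not analysed here. Names for 52125 of the 56748 Ensembl identifiers came from GENCODE M21, which belongs to GRCm38 and was used for names, gene types and exon lengths alone. Promoters are from RefSeq (GRCm38.p6).

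Depth was recovered from the FPKM steps of genes with few fragments: values that came to 1 to 30 fragments were whole, within 0.02, in 90.2% to 92.0% of cases in a library (4.0% by chance). Depth was 16810000 to 31970000 fragments per library, and floors of 3 fragments cover counting error only. The values are FPKM, so no count model was the main test. Log2(FPKM + 1) was tested with limma 3.58.1 (R 4.3.3; two-sided moderated test with trend), keeping genes that reached 0.5 FPKM in 4 or more libraries of a pair, with Benjamini-Hochberg adjustment over all genes tested and a threshold of 0.05. The script was tested on simulated data with 200 changed genes. Summaries used pandas 2.3.3 and numpy 2.4.6 in Python 3.11.15, and plots matplotlib 3.10.9.

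Members were grouped by role, and values in every library are given for the 3 most abundant of each role by mean FPKM and would be for any called; other members are given by range, and Timp1 and Lox were given in full after their values were seen. Genes outside the rule come from 4 pathway lists, named where called, and from marker lists. Members, lists and tests were chosen with earlier results of these data known. Whether counting used strand is not given in the sources used here, so overlapping genes may share fragments. The alternatives were pseudocounts of 0.1 and 5, no filter and a filter of 2 FPKM, median-of-ratios, quantile and non-mitochondrial scaling, all 14 libraries in 1 fit, array weights, the mitochondrial share as a covariate, voom on recovered fragments, a fit without mice 22, 24 and 28, and each mouse left out in turn.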

Additional observations from a re-analysis of the deposited data

Results flagged for a closer look

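In 30 genes and 3 groups, 90 sets of 4 or 5 hearts were checked for a heart set apart from the others by most of the group's range, as chance does in about 1 set in 20. This held for 5 sets, all of them mouse 24 in WT_A. Adamts8 and Adamts19 did not pass the filter for testing and reached at most 0.377 and 0.172 FPKM outside mouse 24. They stand among the genes checked through mouse 24 alone, so their flags cannot be set against that rate. Adamts8 was at 26.9 FPKM in mouse 24, against 0.0326 to 0.377 FPKM in the other 3 WT_A hearts. Adamts19 was at 1.18 FPKM, against 0.0571 to 0.0958 FPKM. Adamts15 was at 2.19 FPKM, against 0.528 to 0.715 FPKM. Timp2 was at 71.0 FPKM, against 28.4 to 32.7 FPKM, and Mmp28 at 2.62 FPKM, against 1.46 to 1.60 FPKM. The atrial, endocardial and Comp levels of this heart are given with the results, and their part was not tested.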

How the results depend on the processing

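No paired analysis was possible because the groups share no mouse numbers. In WT_B against WT_F the number of members called was 0 in the analysis reported, 6 with array weights (Adamts5, Adamtsl2, Adamtsl4, Adamtsl5, Lox and Mmp14), 3 without mice 22, 24 and 28, and 0 to 3 with single mice left out. Of all genes, 32.8% were called with array weights, 20.7% without mice 22, 24 and 28, and 0.133% to 20.7% with single mice left out. Lox passed the filter there through WT_B hearts alone. In WT_B against WT_A the number of members called was 0, with 1 (Mmp15) under array weights and without mice 22, 24 and 28, and 0 to 1 with single mice left out. Of all genes, 37.7% were called with array weights, 33.8% without mice 22, 24 and 28, and at most 19.0% with single mice left out. In WT_F against WT_A the number of members called was 0 in every alternative run. Of 16 single differences with an unadjusted p under 0.05 and 2 called only in an alternative, 377 values were recomputed: 359 kept direction and side of the threshold, 16 passed it, and 2 turned under the mitochondrial covariate, Adamtsl4 to 0.0040 in WT_B against WT_F and Mmp15 to 0.1599 in WT_B against WT_A.

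Over all genes, 208 were called in WT_B against WT_F, but 20 with no filter, 35 in 1 fit of all 14 libraries, 4233 with array weights, 11 with the mitochondrial covariate, 2645 without mice 22, 24 and 28, 512 with voom, and 17 to 2645 with single mice left out, the high end without mouse 28. In WT_B against WT_A 41 were called, but 0 with no filter, 26 with the filter of 2 FPKM, 100 with non-mitochondrial scaling, 401 with all 14 libraries, 4811 with array weights, 2 with the covariate, 4206 without mice 22, 24 and 28, 12 with voom, and 0 to 2392 with single mice left out, the high end without mouse 22. In WT_F against WT_A 3 were called, but 6 with a pseudocount of 0.1, 1 with no filter, 9 with all 14 libraries, 9 with array weights, 1 without mice 22, 24 and 28, 1 with voom, and 0 to 4 with single mice left out. The cause of these shifts was not tested. Non-mitochondrial scaling moved the median of all genes by 0.12 in WT_B against WT_A, and changed the higher and lower calls to 128 and 60 in place of 86 and 122 in WT_B against WT_F, 92 and 8 in place of 33 and 8 in WT_B against WT_A, and 2 and 0 in place of 2 and 1 in WT_F against WT_A. The scarce collagenases, at 0 to 14 fragments per heart, did not pass the filter, so differences in those genes were not tested.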
